A study of Mus musculus with 24 samples.

Results

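The comparison described here sets embryoid bodies that carry re-expressed wild-type EED against embryoid bodies of the untreated conditional line, 1 day after their formation began. Its members are the 2 libraries titled KO+WT EED at day 1 and the 2 titled f/f at day 1, which makes 4 of the 24 libraries of the series, and all genes in the count table were considered. The tested cells, KO+WT below, are C57BL/6 mouse embryonic stem cells in which the conditional Eed gene was deleted with 800 nM 4-hydroxytamoxifen and into which, going by the titles, wild-type EED was put back; their genotype field names the knockout alone. Beside them the series holds KO+N-KR cells, the knockout with an EED form labelled N-KR that the labels do not spell out, and KO cells, the knockout with nothing added, both given tamoxifen. The comparison line, f/f, holds the conditional allele, was not given tamoxifen and is labelled wild type. All lines grew on feeder layers of mouse embryonic fibroblasts in medium with serum and LIF, and each was also sampled at 2 other stages, in a state named 3i and after 2 days as embryoid bodies. The labels do not say whether a line is 1 clone or a pool, or how the added EED is driven. KO+WT and f/f differ in tamoxifen, in the deletion, in the added EED and in line history, and these cannot be told apart.

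EED is a core subunit of Polycomb repressive complex PRC2, in which EZH1 or EZH2 carries the methyltransferase that marks histone H3 and EED binds the finished mark. In embryonic stem cells the mark covers silent developmental regulators such as Hox, Gata and Pax genes. Embryoid bodies are aggregates of stem cells that leave the naive state and pass through a formative, epiblast-like state before the germ layers appear. The comparison addresses how far cells with re-expressed EED resemble the untreated conditional line as this transition begins.

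Library totals were 13060022 and 8185907 counts for KO+WT at day 1 and 11356458 and 9372421 counts for f/f at day 1. The 2 libraries of KO+WT differed by 1.13 times the variance of binomial sampling, and those of f/f by 1.10 times, against 10.2 and 7.86 times between KO+WT and f/f libraries of the same replicate number. Since the labels do not say that the 2 libraries of a group came from separate cultures, they were summed and counted as 1 sample, so that 1 KO+WT sample of 21245929 counts stands against 1 f/f sample of 20728879 counts. The p-values at day 1 come from edgeR's quasi-likelihood F-test over all 12 samples, with terms for genotype and state and own terms for the 2 samples compared. They set the difference against how unevenly genotype differences recur over states among the other samples (4 residual degrees of freedom, coefficient of variation 9.19%), assume that the 2 samples vary like those, and hold no independent line or culture. Fold changes are log2 of KO+WT over f/f with the standard error, levels are TMM-scaled counts per 1000000 counts (CPM), and a gene was called at a Benjamini-Hochberg adjusted p under 0.05 over 15558 genes. Calls over the 3 states together use the states of a line as its repeats, day 1 among them. Those calls hold no independent line or culture either. In these bulk samples, fewer cells of a type and less RNA per cell cannot be told apart.

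Eed itself was measured at 369 and 377 CPM in the KO+WT libraries, against 219 and 220 CPM in the f/f libraries. KO+N-KR had 181 CPM and KO 174 CPM at day 1. The KO+WT libraries were thus above all others, at a log2 difference from f/f of 0.76 ± 0.19 that was not called at day 1 (adjusted p = 0.135) and that was called over the 3 states together (0.82 ± 0.10, adjusted p = 0.000224). The day 1 difference was called under 6 of 17 alternatives, namely without the 3i samples (edgeR adjusted p = 5.29e-05), with DESeq2 (adjusted p = 0.0126) and in the 4 fits on single libraries, and not under the other 11 (adjusted p 0.0508 to 0.306). The sources used here do not give which part of Eed was deleted or whether reads of the added sequence are counted, so the values of KO and KO+N-KR do not test the labels. Skp1a, the SCF ubiquitin ligase subunit that the series title names, had 381 and 396 CPM in KO+WT, against 413 and 399 CPM in f/f (−0.07 ± 0.10, adjusted p = 0.854). Among the 6 PRC2 core subunits, Ezh2, the main methyltransferase of stem cells, had 237 CPM in KO+WT and 244 CPM in f/f, and Suz12, the scaffold, 348 CPM in KO+WT and 329 CPM in f/f. None of the 6 core and 6 accessory PRC2 subunits and none of the 21 PRC1 subunits was called at day 1.

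At day 1, 17 genes were called higher in KO+WT (0.109% of those tested) and 37 lower (0.238%), and the lowest adjusted p was 4.49e-05. By a rule of size with no test, a ratio of 2 or more and 5 CPM or more in whichever sample was higher, 61 genes were higher (0.392%) and 49 lower (0.315%). The median log2 ratio of all genes tested was 0, and 49.5% of them lay above 0. The genes called lower were unevenly placed in the genome. Of the 37, 19 lie on chromosome 8, which holds 807 or 5.19% of the genes tested, and 11 lie in the Xlr region of the X chromosome. The 14073 genes of the other autosomes held 12 calls higher and 7 lower, and the 568 genes in the rest of the X chromosome held 5 higher and 0 lower.

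Chromosome 8 was lower in KO+WT along its whole length. Over 588 of its genes with a mean of at least 5 CPM, the median log2 ratio of KO+WT to f/f was −0.42, with quartiles at −0.56 and −0.29, which is a median ratio of 0.747. Of these genes, 557 (94.7%) were below 0, whereas on the other 19 chromosomes the medians ran from −0.04 to 0.03 and the share below 0 from 42.5% to 57.6%. In 10 consecutive blocks of 58 or 59 genes along chromosome 8, the block medians ran from −0.48 to −0.36. The shift was thus present in every block, with no block near 0.

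**Figure D1:**
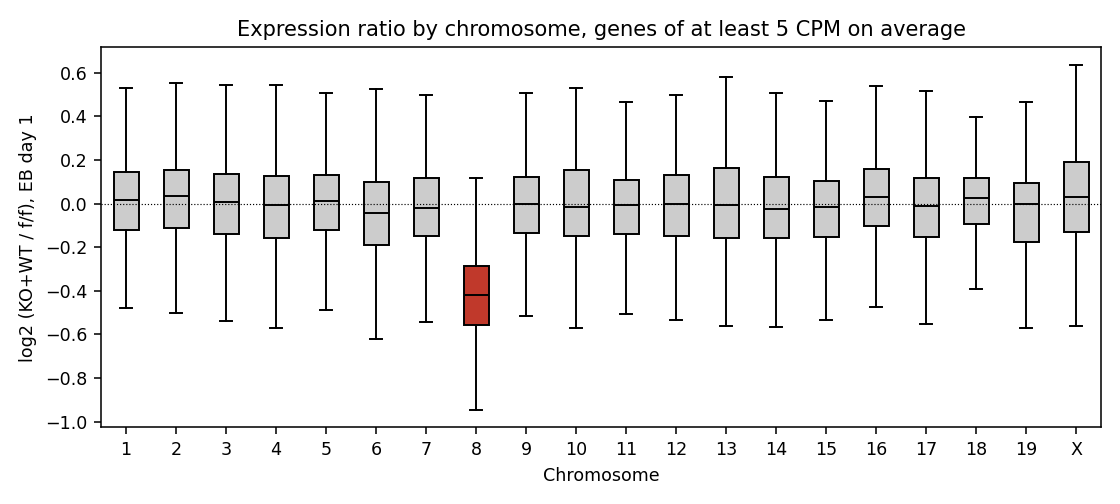
Log2 ratio of KO+WT to f/f at embryoid body day 1 for genes with a mean of at least 5 CPM, by chromosome. Each box spans the quartiles with the median as a line, whiskers reach the last gene within 1.5 box lengths, and points beyond them are not drawn. Chromosome 8, in red, sits at a median of −0.42, and the medians of the other 19 chromosomes lie between −0.04 and 0.03.

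The same shift was seen in samples that share no library with the day 1 pair. KO+WT minus f/f had a chromosome 8 median of −0.41 in 3i and of −0.41 at day 2, and KO+N-KR minus KO had −0.39 at day 1, −0.33 in 3i and −0.34 at day 2. KO minus f/f at day 1, which shares the f/f libraries, had −0.03, and KO+N-KR minus KO+WT at day 1, which shares the KO+WT libraries, had 0. Chromosome 8 genes took 4.25% of the counts in each KO+WT library at day 1, against 5.58% in each f/f library. Over the 3 states the samples of KO+WT held 4.25% to 4.33%, those of KO+N-KR 4.31% to 4.39%, those of KO 5.54% to 5.56% and those of f/f 5.57% to 5.63%. Both lines with an added EED therefore lie apart from KO and f/f in every state, without overlap. These are RNA measurements, and DNA was not assayed.

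**Figure D2:**
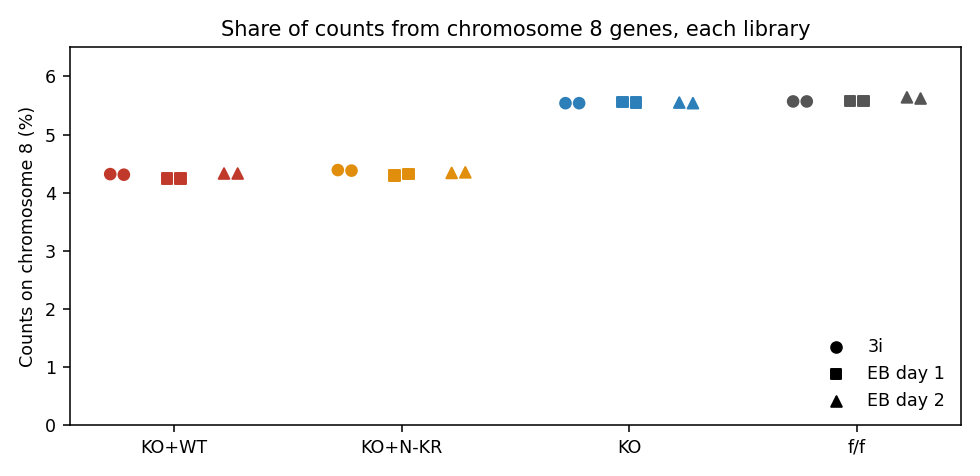
Percent of each library's counts that fell on chromosome 8 genes, by line and state, with 1 point per library. The points of KO+WT and KO+N-KR lie between 4.25% and 4.39%, and those of KO and f/f between 5.54% and 5.64%.

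Chromosome 8 genes called lower at day 1 differed from f/f by about the size of the shift or more. Arl2bp, which encodes a binding partner of the small GTPase ARL2, had 22.7 and 22.8 CPM in KO+WT, against 47.3 and 45.8 CPM in f/f (−1.04 ± 0.14, adjusted p = 0.0113). Rpl13, a protein of the large ribosomal subunit, had 1000 CPM in both KO+WT libraries, against 1660 CPM in both f/f libraries (−0.73 ± 0.11, adjusted p = 0.0231). The metallothionein genes Mt1 and Mt2, whose products bind zinc and copper, were looked at after their values were seen. Mt2 had 308 and 294 CPM in KO+WT, against 588 and 577 CPM in f/f (−0.95 ± 0.12, adjusted p = 0.00695), and Mt1 217 and 218 CPM in KO+WT, against 400 and 414 CPM in f/f (−0.90 ± 0.13, adjusted p = 0.0209). Other calls on this chromosome, again chosen after their values were seen, include the chromatin protein gene Hmgb2 (748 and 741 CPM in KO+WT, against 1080 CPM in both f/f libraries, −0.53 ± 0.09) and 2810428I15Rik (−0.92 ± 0.17). By the size rule 15 chromosome 8 genes were lower and 1 was higher. Of the 16 alternative fits that keep this chromosome, Arl2bp passed under all 16 and Rpl13 under 15, losing its call without the day 2 samples (adjusted p = 0.0553). These 16 include the 4 fits on single libraries, which treat the libraries of a group as replicates and which both genes passed.

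The steepest differences lay in the Xlr region. The Xlr (X-linked lymphocyte-regulated) genes form a family of near-identical copies related to the synaptonemal complex protein SYCP3, and Xlr3b, Xlr4b and Xlr4c are known as imprinted genes of the mouse brain. Start sites of 2 pairs are shown because some copies of a subfamily share long stretches of promoter. How alike their transcripts are, on which the assignment of reads depends, was not examined. All 9 Xlr genes looked up had a RefSeq promoter entry (GRCm38.p6, 250 bases before to 50 after the start). The entries of Xlr5a (chrX:73117653-73117952, minus strand) and Xlr5b (chrX:73148591-73148890, plus strand) have 255 identical bases in 1 run, and those of Xlr4b (chrX:73214083-73214382, plus strand) and Xlr4c (chrX:73243081-73243380, minus strand) have 169. Between copies of different subfamilies the longest shared run was 15 bases, and Xlr5c shares at most 9 with Xlr5a and Xlr5b. A link between promoter sequence and expression was not tested. Capitals mark the run shared within each pair.
Xlr5a: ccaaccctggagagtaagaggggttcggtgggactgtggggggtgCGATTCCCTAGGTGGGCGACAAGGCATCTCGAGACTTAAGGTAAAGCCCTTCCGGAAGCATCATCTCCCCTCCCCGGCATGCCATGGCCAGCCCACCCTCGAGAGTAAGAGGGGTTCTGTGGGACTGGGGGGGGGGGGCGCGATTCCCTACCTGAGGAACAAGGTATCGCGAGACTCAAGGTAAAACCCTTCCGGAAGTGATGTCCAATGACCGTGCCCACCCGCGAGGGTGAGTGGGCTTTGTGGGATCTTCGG
Xlr5b: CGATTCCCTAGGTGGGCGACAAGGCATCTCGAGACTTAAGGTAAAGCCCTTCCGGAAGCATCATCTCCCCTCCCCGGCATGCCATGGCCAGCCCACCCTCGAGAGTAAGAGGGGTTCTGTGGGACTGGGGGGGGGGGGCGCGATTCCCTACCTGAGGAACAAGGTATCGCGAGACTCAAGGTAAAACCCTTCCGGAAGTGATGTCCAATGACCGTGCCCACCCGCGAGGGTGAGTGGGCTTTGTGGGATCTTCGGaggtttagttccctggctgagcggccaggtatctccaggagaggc
Xlr4b: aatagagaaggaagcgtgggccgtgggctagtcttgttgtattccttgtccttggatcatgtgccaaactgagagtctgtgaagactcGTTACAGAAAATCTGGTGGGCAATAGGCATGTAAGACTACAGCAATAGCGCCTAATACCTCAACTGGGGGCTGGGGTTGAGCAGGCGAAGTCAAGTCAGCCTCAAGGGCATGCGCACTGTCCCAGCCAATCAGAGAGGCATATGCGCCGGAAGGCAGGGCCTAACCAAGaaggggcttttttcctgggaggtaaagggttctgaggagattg
Xlr4c: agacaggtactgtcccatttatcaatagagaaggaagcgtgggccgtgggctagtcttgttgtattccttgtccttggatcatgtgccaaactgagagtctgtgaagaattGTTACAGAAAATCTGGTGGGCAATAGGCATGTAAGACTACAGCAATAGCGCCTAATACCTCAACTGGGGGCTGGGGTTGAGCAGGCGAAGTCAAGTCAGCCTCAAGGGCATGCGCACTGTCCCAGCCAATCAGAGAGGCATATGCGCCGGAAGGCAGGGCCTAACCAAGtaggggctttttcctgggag

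A search of both strands found CCAAT, the CCAAT box, in 8 of the 9 Xlr promoters and in 37.4% of the 32851 promoters of the table. CCGGAAG, a core recognised by ETS factors, was in 5 of the 9 and in 8.86% of all, and TATAAA, the TATA box, in 0 of the 9 and in 13.6% of all. These are matches of letters in copies that share sequence, and the 9 genes are not independent.

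All 11 tested genes of the region were called lower in KO+WT: Xlr3a, Xlr3b, Xlr3c, Xlr4a, Xlr4b, Xlr4c, Xlr5a, Xlr5b, Xlr5c, DXBay18 and Gm14685. Summed over them, KO+WT had 12.2 CPM at day 1, against 164 CPM in f/f. Xlr5b had 0.237 and 0 CPM in KO+WT, against 22.4 and 21.2 CPM in f/f (−7.17 ± 0.46, adjusted p = 4.49e-05). This rests on 3 counts in KO+WT and 428 in f/f, a ratio of f/f to KO+WT of 150 with an exact 95% counting interval of 50.9 to 729. Xlr5a had 0.316 and 0 CPM in KO+WT, against 24.4 and 21.8 CPM in f/f (−6.86 ± 0.50, adjusted p = 0.000102). DXBay18 and Gm14685, for which no role is given here, had 0 counts in KO+WT, against 131 and 117 counts in f/f, so that with 3 counts as the floor of the KO+WT sample they were at least 45.8-fold and at least 40.9-fold lower. The exact 95% counting intervals, which also cover the error of the f/f counts, begin lower, at 36.8-fold for DXBay18 and 32.8-fold for Gm14685.

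The fold differences of the Xlr3 copies were smaller than those of the Xlr5 copies. Xlr3a had 4.03 and 3.91 CPM in KO+WT, against 35.1 and 38.0 CPM in f/f (−3.19 ± 0.21, adjusted p = 4.49e-05), Xlr3b 3.88 and 3.66 CPM in KO+WT, against 28.3 and 25.7 CPM in f/f (−2.84 ± 0.30, adjusted p = 0.00314), and Xlr3c 2.37 and 2.40 CPM in KO+WT, against 16.8 and 13.8 CPM in f/f (−2.69 ± 0.32, adjusted p = 0.0067). Between these lie Xlr5c (−5.86 ± 0.53), Xlr4a (−3.77 ± 0.35), Xlr4b (−3.39 ± 0.47) and Xlr4c (−3.30 ± 0.41). The difference between the subfamilies was not tested, and reads of near-identical copies may have been split between members, so single members are uncertain and the sum is the firmer value. Xlr4b and Xlr4c lost their call without the replicate 2 libraries (adjusted p = 0.0566 and 0.0508) and without the day 2 samples (adjusted p = 0.0508 for both).

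The region's edges were sharp among measured genes. F8a, which lies between Xlr4b and Xlr4c in the reference order, had 2.43 CPM in KO+WT and 2.81 CPM in f/f (−0.21, adjusted p = 0.882). On one side, Pnma3 had 3.89 CPM in KO+WT and 3.57 CPM in f/f, and Pnma5 26.9 CPM in KO+WT and 26.7 CPM in f/f. On the other side, Zfp275 had 27.5 CPM in KO+WT and 26.0 CPM in f/f, and Haus7 22.4 CPM in KO+WT and 27.2 CPM in f/f. None of these was called, nor was the matrix gene Bgn farther out, which had 14.0 CPM in KO+WT and 5.67 CPM in f/f (1.30, adjusted p = 0.0713). As on chromosome 8, the Xlr sum separated the lines with an added EED from the others. It was 7.86, 12.2 and 8.83 CPM in KO+WT in 3i, at day 1 and at day 2, and 6.15, 7.91 and 5.20 CPM in KO+N-KR. KO had 170, 142 and 155 CPM in the same states, and f/f 183, 164 and 163 CPM.

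**Figure D3:**
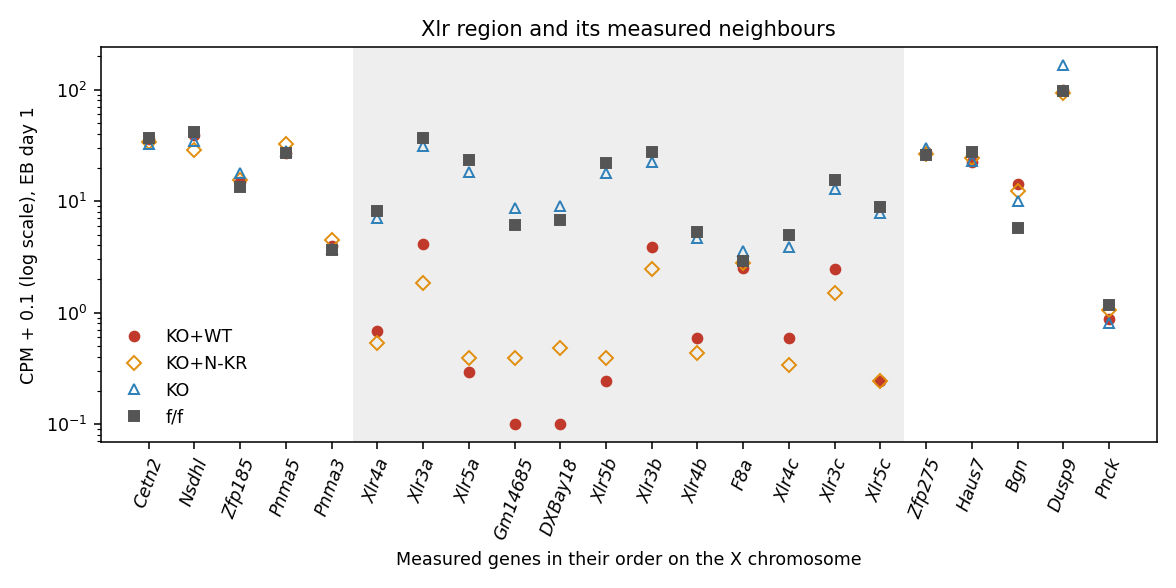
Levels at embryoid body day 1 of measured genes in their order along the X chromosome, in CPM plus 0.1 on a log scale, with 1 point per line; grey marks the stretch from Xlr4a to Xlr5c. Within it every gene but F8a is low in KO+WT and KO+N-KR and high in KO and f/f, and the neighbours from Cetn2 to Pnma3 and from Zfp275 to Pnck show no such split.

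Outside these 2 regions the genes called higher included a Notch receptor, a neuroendocrine factor and an imprinted growth regulator. Notch3, a Notch receptor, had 80.0 and 86.8 CPM in KO+WT, against 42.3 and 40.0 CPM in f/f (1.00 ± 0.14, adjusted p = 0.0142). KO+N-KR had 70.8 CPM and KO 69.0 CPM, so f/f was the lowest of the 4 lines at day 1. Insm1, a zinc finger factor of neuroendocrine differentiation, had 23.3 and 21.2 CPM in KO+WT, against 9.69 and 7.22 CPM in f/f (1.39 ± 0.23, adjusted p = 0.0365). For Insm1, KO+N-KR had 18.8 CPM and KO 3.6 CPM, so that f/f stood between KO and the lines with an added EED. Grb10, the imprinted adaptor that restrains insulin receptor signalling, had 185 and 183 CPM in KO+WT, against 82.9 and 75.9 CPM in f/f (1.21 ± 0.21, adjusted p = 0.0475), and KO+N-KR (95 CPM) and KO (93.6 CPM) lay near f/f. In the other states Grb10 had 225 CPM in KO+WT and 85.8 CPM in f/f in 3i, and 211 CPM in KO+WT and 97.6 CPM in f/f at day 2.

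X-linked genes known from the germ line were also among those called higher. Ott, a multicopy gene transcribed in ovary and testis, had 7.67 and 5.43 CPM in KO+WT, against 1.86 and 0.903 CPM in f/f (2.25 ± 0.34, adjusted p = 0.0221). Gm15085 carried the same counts as Ott and Gm15093 nearly the same, so these are taken as 1 locus. Usp26, an X-linked deubiquitinase of the testis, had 18.9 and 23.7 CPM in KO+WT, against 7.08 and 4.63 CPM in f/f (1.80 ± 0.23, adjusted p = 0.0101). Tex13, another X-linked testis gene, was below the level of the naming rule and is given because it completes the 5 calls on the X chromosome. It had 1.98 and 3.03 CPM in KO+WT, against 0 and 0.113 CPM in f/f, with 49 counts in KO+WT and 1 in f/f (a ratio of f/f to KO+WT of 0.0214, counting interval 0.000532 to 0.125, adjusted p = 0.0389). As a group, however, the 16 germline and meiosis genes listed held 8 members above 0 and 8 below, with none called.

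The remaining named genes called higher act in lipid metabolism, transport and signalling. Cds1, which makes CDP-diacylglycerol, had 20.3 and 23.7 CPM in KO+WT, against 8.11 and 8.13 CPM in f/f (1.41 ± 0.21, adjusted p = 0.0209). Pla2g1b, a secreted phospholipase, had 23.7 and 24.4 CPM in KO+WT, against 8.94 and 9.82 CPM in f/f (1.36 ± 0.24, adjusted p = 0.0444). Rassf4, a Ras-association protein, had 18.0 and 20.1 CPM in KO+WT, against 5.03 and 7.00 CPM in f/f (1.67 ± 0.25, adjusted p = 0.0242). In all 3 genes both KO+WT libraries were more than 2-fold above both f/f libraries. The bicarbonate transporter gene Slc4a5 (1.17 ± 0.21), the drug exporter gene Abcb1b (1.11 ± 0.18), the FERM-domain gene Frmd5 (1.39 ± 0.24) and Dusp27, a phosphatase-like gene (1.05 ± 0.18), had adjusted p between 0.0365 and 0.0480. Abcb1b was low in f/f alone, at 29.1 and 26.5 CPM in KO+WT, 31.9 CPM in KO+N-KR and 31.6 CPM in KO, compared with 14.2 and 11.6 CPM in f/f. Dusp27 had 95.5 and 98.6 CPM in KO+WT, 82.8 CPM in KO+N-KR and 38.1 CPM in KO, compared with 49.8 and 42.6 CPM in f/f. Gpa33 (0.95 ± 0.16, adjusted p = 0.0365), an epithelial surface antigen gene, and the G protein subunit gene Gng2 (0.82 ± 0.14, adjusted p = 0.0365) complete the calls and were named after their values were seen.

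Away from chromosome 8 and the Xlr region, 7 genes were called lower. Id1, the inhibitor of basic helix-loop-helix factors that BMP signalling induces, had 14.6 and 13.2 CPM in KO+WT, against 37.8 and 37.0 CPM in f/f (−1.41 ± 0.26, adjusted p = 0.0489). KO+N-KR had 24.1 CPM and KO 39.7 CPM. Steap1, of the STEAP membrane protein family, had 7.43 and 9.09 CPM in KO+WT, against 20.7 and 20.8 CPM in f/f (−1.36 ± 0.23, adjusted p = 0.0365), and Mgat4b, an enzyme that branches N-glycans, 16.7 and 15.5 CPM in KO+WT, against 35.4 and 39.7 CPM in f/f (−1.20 ± 0.21, adjusted p = 0.0444). Sqle, the squalene epoxidase of cholesterol synthesis, had 91.5 and 83.0 CPM in KO+WT, against 157 and 162 CPM in f/f (−0.85 ± 0.15, adjusted p = 0.0489). The other 3 were named after their values were seen. Steap2, a metalloreductase of the STEAP family, had 44.1 and 41.6 CPM in KO+WT, against 80.0 CPM in both f/f libraries (−0.89 ± 0.15, adjusted p = 0.0389). Zdbf2, a known imprinted gene, had 151 and 158 CPM in KO+WT, 289 CPM in KO+N-KR and 271 CPM in KO, compared with 256 and 257 CPM in f/f (−0.74 ± 0.13, adjusted p = 0.0478). E430025E21Rik had 57.4 and 58.5 CPM in KO+WT, 121 CPM in KO+N-KR and 116 CPM in KO, compared with 109 and 107 CPM in f/f (−0.90 ± 0.12, adjusted p = 0.0155). For Zdbf2 and E430025E21Rik KO+WT was the lowest of the 4 lines.

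Several of these calls lie close to the threshold. Notch3 passed under all 17 alternative fits that test day 1, Usp26, Rassf4 and Cds1 under 16, Ott under 14, Insm1, Frmd5, Pla2g1b, Abcb1b and Steap1 under 13, Grb10, Dusp27 and Sqle under 12, Id1 and Mgat4b under 11 and Slc4a5 under 10, always with the same direction. The 17 include the 4 fits on single libraries, which treat the libraries of a group as replicates and which every gene listed passed. Those 4 fits thus raise each tally. Without the chromosome 8 genes, an alternative added after seeing the data, 10 named genes that lie elsewhere lost their call (adjusted p 0.0515 to 0.0707). Leaving out the replicate 1 libraries ended the calls of Ott, Frmd5, Slc4a5 and Steap1 (adjusted p 0.0732 to 0.108), and leaving out the replicate 2 libraries those of Usp26, Insm1, Pla2g1b, Abcb1b, Dusp27, Id1 and Mgat4b (adjusted p 0.0523 to 0.114).

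**Figure D4:**
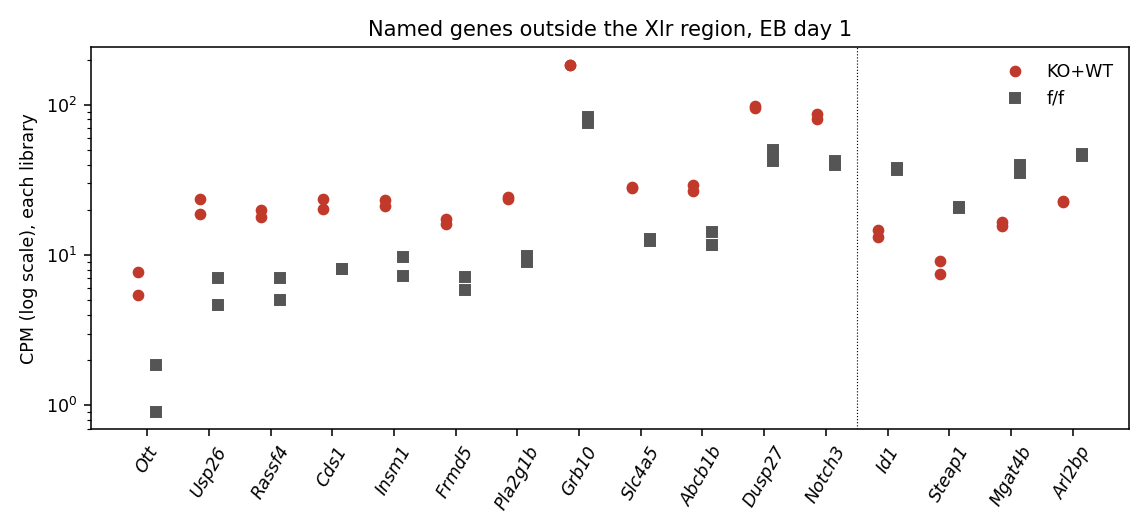
CPM on a log scale in each day 1 library of KO+WT (red circles) and f/f (grey squares). Shown are named genes outside the Xlr region called at 2-fold or more, with those called higher left of the dotted line and those called lower right of it. In every gene both KO+WT libraries lie on the same side of both f/f libraries. The genes were chosen by their difference between these libraries, so this is no separate support.

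Genes of the formative state, which follows naive pluripotency, lay mostly above f/f in KO+WT, although none was called at day 1. Of 15 formative and primed epiblast genes, 14 were above 0 and 1 below, with a median log2 ratio of 0.51 (0.40 without the replicate 1 libraries). Fgf5, the growth factor that defines this state, had 18.8 and 19.4 CPM in KO+WT, against 10.4 and 7.68 CPM in f/f (1.05 ± 0.32, adjusted p = 0.246). Pou3f1, a POU factor, had 147 and 139 CPM in KO+WT, against 88.1 and 89.5 CPM in f/f (0.70 ± 0.28, adjusted p = 0.424). The libraries of the 2 lines did not overlap for either gene. Over the 3 states together, Fgf5 (0.85 ± 0.19, adjusted p = 0.0156), Pou3f1 (0.66 ± 0.16, adjusted p = 0.0197), Wnt8a (1.09 ± 0.27, adjusted p = 0.0257) and Foxd3 (1.01 ± 0.24, adjusted p = 0.0179) were called higher in KO+WT, 4 of the 15, against 3.65% of the 15220 genes of that fit. Wnt8a is a WNT ligand and Foxd3 a forkhead factor.

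Of 15 naive pluripotency genes, 3 were above 0 and 12 below at day 1, with a median of −0.31 that became −0.18 without the replicate 2 libraries. Without the 2 members on chromosome 8 the median was −0.25. Klf5 had 48.8 CPM in KO+WT and 73.0 CPM in f/f (−0.58 ± 0.30, adjusted p = 0.561), and Tfcp2l1 103 CPM in KO+WT and 144 CPM in f/f (−0.48 ± 0.35, adjusted p = 0.704). Esrrb (298 CPM in KO+WT and 314 CPM in f/f) and Nanog (141 CPM in KO+WT and 150 CPM in f/f) differed by less than their standard errors. In 3i the median of the same list was 0.39 and at day 2 it was 0.01, so the sign at day 1 was not that of the other states. The 10 general pluripotency genes, such as Pou5f1 and Sox2, had a median of 0.01. All of these medians stand beside a median of 0 for all genes.

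Endoderm genes were split by level, with transcription factors and other weakly expressed members mostly below f/f and the 3 most abundant members above it, again without a call at day 1. Of 19 primitive endoderm regulators and products, 5 were above 0 and 13 below, with a median of −0.35 (−0.22 without the replicate 2 libraries). Summed over the list, the KO+WT libraries held 986 and 971 CPM and the f/f libraries 889 and 885 CPM, so the sum was higher in KO+WT although the median lay below 0. The laminin gene Lamc1, the most abundant member at day 1, had 541 and 535 CPM in KO+WT, against 473 and 466 CPM in f/f (0.20, adjusted p = 0.730). Gata6, a factor that starts this lineage, had 1.27 and 1.01 CPM in KO+WT, against 5.40 and 4.29 CPM in f/f (−2.06 ± 0.61, adjusted p = 0.214). Cubn, an endocytic receptor of visceral endoderm, had 10.0 and 12.4 CPM in KO+WT, against 22.5 and 22.2 CPM in f/f (−1.03 ± 0.25, adjusted p = 0.128), and its partner Amn 0.316 and 0.379 CPM in KO+WT, against 1.86 and 1.13 CPM in f/f (−2.15 ± 0.57, adjusted p = 0.165). For Cubn, KO+N-KR had 58.9 CPM and KO 35.0 CPM, so KO+WT was the lowest of the 4 lines. Over the states, 4 members were called lower, against 5.17% of all genes: Cubn (−0.97 ± 0.16, adjusted p = 0.00231), Gata6 (−1.34 ± 0.35, adjusted p = 0.0295), the collagen gene Col4a1 on chromosome 8 (−0.34 ± 0.09, adjusted p = 0.0422) and the transthyretin gene Ttr (−2.35 ± 0.62, adjusted p = 0.0323), which had 0 CPM in both KO+WT libraries and 0 and 0.226 CPM in the f/f libraries at day 1. The 2 called higher, against 3.65% of all genes, were the laminin gene Lamb1 (0.29 ± 0.05, adjusted p = 0.00436) and the endocytic receptor gene Lrp2 (0.31 ± 0.07, adjusted p = 0.0104).

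The textbook targets of Polycomb were split about evenly at day 1. Of 49 such genes outside the Hox clusters, 37 had enough counts, and 18 of those were above 0 and 19 below, with a median of −0.04. Neurod1, a neurogenic factor, had 16.5 and 15.4 CPM in KO+WT, against 4.57 and 4.18 CPM in f/f (1.87 ± 0.42, adjusted p = 0.101), and KO+N-KR had 13.5 CPM and KO 5.56 CPM. Bmp4, a BMP ligand, had 7.20 and 5.93 CPM in KO+WT, against 16.2 and 18.2 CPM in f/f (−1.35 ± 0.30, adjusted p = 0.0988). Log2 ratios in the list ran from −1.99 to 1.85, and Gata6, another member, lay farther below f/f than Bmp4. Over the states, Neurod1 (1.29 ± 0.25, adjusted p = 0.00654) and the T-box gene Tbx4 (1.01 ± 0.24, adjusted p = 0.0194) were called higher and Bmp4 (−0.80 ± 0.23, adjusted p = 0.049) and Gata6 lower. That is 2 of the 37 in each direction, near the shares of all genes, 3.65% higher and 5.17% lower. Of 38 Hox genes, 22 had enough counts, 8 above 0 and 14 below, but their summed level was 7.44 CPM in KO+WT and 8.47 CPM in f/f and their median moved between −0.28 with both replicates and 0.06 without the replicate 2 libraries. No difference in Hox genes was detectable at this depth.

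The list of classically imprinted genes, which does not hold Zdbf2 or the Xlr copies, had 1 call at day 1, Grb10, among 31 tested, with 18 above 0 and 13 below. Igf2, the fetal growth factor, had 11.3 and 10.6 CPM in KO+WT, against 5.78 and 5.53 CPM in f/f (0.96 ± 0.40, adjusted p = 0.448), and Usp29, the paternally expressed neighbour of Peg3, 10.3 CPM in both KO+WT libraries, against 4.29 and 6.21 CPM in f/f (1.00 ± 0.29, adjusted p = 0.200). Both were called higher over the states (Igf2 0.94 ± 0.20, adjusted p = 0.0102; Usp29 0.89 ± 0.15, adjusted p = 0.00214). In all, the list held 3 calls higher and 2 lower over the states, where 3.65% of all genes were called higher and 5.17% lower. Peg3 itself had 454 CPM in KO+WT and 495 CPM in f/f. Of the 12 genes whose imprint rests on histone methylation, Sfmbt2, a Polycomb-group gene, had 12.2 CPM in KO+WT, 14.4 CPM in KO+N-KR and 52.3 CPM in KO, compared with 15.7 CPM in f/f, so that KO stood apart and KO+WT lay near f/f (−0.37 ± 0.58, adjusted p = 0.877).

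The day 1 calls in the signalling lists were all genes already described. In the BMP and Id list (14 genes, 6 above 0 and 8 below, median −0.19) Id1 was called lower, while Id2 had 11.1 CPM in KO+WT and 5.72 CPM in f/f (0.96 ± 0.70, adjusted p = 0.697) and Id3 21.3 CPM in KO+WT and 19.9 CPM in f/f. In the Notch list (16 genes, 8 above 0 and 8 below, median 0.01) Notch3 and Insm1 were called higher, while Notch1 had 40.3 CPM in KO+WT and 37.1 CPM in f/f and the target gene Hes1 14.1 CPM in KO+WT and 20.0 CPM in f/f (−0.51 ± 0.32, adjusted p = 0.645). Etv4, a target of FGF signalling, had 145 and 140 CPM in KO+WT, against 216 and 219 CPM in f/f (−0.60 ± 0.18, adjusted p = 0.210) and was called lower over the states (−0.67 ± 0.09, adjusted p = 0.000708), whereas its relative Etv5 had 430 CPM in KO+WT and 367 CPM in f/f. Both belong to the FGF-ERK feedback list (14 genes, 5 above 0 and 9 below, median −0.10), which had no call at day 1. Over the states 1 of its members was called higher and 4 lower, against 3.65% and 5.17% of all genes. The 12 WNT feedback genes held 4 above 0 and 8 below (median −0.24), with none called at day 1. Of 14 p53 target genes 12 were above 0, with a median of 0.13 and none called.

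Genes of ribosomal proteins, cholesterol synthesis and glycolysis lay almost without exception below f/f, with list medians near −0.2. All 26 ribosomal protein genes listed were below 0 (median −0.23, range −0.73 to −0.10), and their summed level was 28600 CPM in KO+WT, 26900 CPM in KO+N-KR and 29600 CPM in KO, compared with 33900 CPM in f/f. Only Rpl13, on chromosome 8, was called at day 1, and 16 of the 26 were called lower over the states, against 5.17% of all genes. Rps14, a small-subunit protein gene, had 785 and 813 CPM in KO+WT, against 1060 and 1050 CPM in f/f (−0.41 ± 0.11, adjusted p = 0.183). Of 21 cholesterol synthesis genes, 20 were below 0 (median −0.23, range −0.85 to 0.01), and 10 were called lower over the states. Besides Sqle these include Mvd (−0.82 ± 0.08, adjusted p = 4.69e-05) and Sc4mol (−0.81 ± 0.09, adjusted p = 9.34e-05), which lie on chromosome 8, and Lss (−0.44 ± 0.08, adjusted p = 0.00381), Fdps (−0.44 ± 0.09, adjusted p = 0.00634) and Cyp51 (−0.38 ± 0.08, adjusted p = 0.00976), which do not. All 20 hypoxia and glycolysis genes were below 0 (median −0.25), from Ankrd37 on chromosome 8 (12.1 CPM in KO+WT and 24.8 CPM in f/f, −1.03 ± 0.39, adjusted p = 0.387) to the enolase gene Eno1 (3100 CPM in KO+WT and 3120 CPM in f/f, −0.01 ± 0.12), and 4 were called lower over the states. The summed level of this list was 14300 CPM in KO+WT, 12900 CPM in KO+N-KR and 13100 CPM in KO, compared with 15500 CPM in f/f. At day 2 the medians were nearer 0 for ribosomal (−0.09) and glycolysis genes (−0.05) than for cholesterol genes (−0.25). Without their chromosome 8 members the day 1 medians of these 3 lists were −0.22, −0.20 and −0.24, and with library totals in place of TMM scaling they were −0.19, −0.20 and −0.22. The lean was not particular to these lists. Of 25 proteasome genes 23 were below 0 (median −0.12), and of 10 housekeeping genes 7 (median −0.11).

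Markers of the feeder cells were higher in KO+WT. Of 16 fibroblast genes 15 were tested, and all 15 lay above 0 with a median of 0.70 (0.49 without the replicate 1 libraries), although none was called at day 1. Their summed level was 1190 and 1220 CPM in the KO+WT libraries, 1170 CPM in KO+N-KR and 1120 CPM in KO, compared with 1040 and 1030 CPM in the f/f libraries. Col1a1, the collagen that fibroblasts are known for, had 35.5 and 31.9 CPM in KO+WT, against 18.8 and 16.8 CPM in f/f (0.93 ± 0.29, adjusted p = 0.257), and Col6a1 10.4 and 13.2 CPM in KO+WT, against 3.73 and 3.16 CPM in f/f (1.73 ± 0.35, adjusted p = 0.0713). Over the states 9 of the 15 were called higher, against 3.65% of all genes, with list medians of 0.57 in 3i and 0.90 at day 2. The part of feeder RNA in the other differences was not tested.

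The lists not described so far had no call at day 1, and their medians ran from −0.34 for immediate early genes to 0.57 for markers of endothelium and blood. Without its 2 members on chromosome 8 the immediate early median was −0.21. In the endothelium and blood list 6 of 7 tested genes were above 0, led by Tek, the angiopoietin receptor, with 15.7 and 16.4 CPM in KO+WT, against 4.94 and 4.40 CPM in f/f (1.77 ± 0.48, adjusted p = 0.171). Tek was called higher over the states (1.23 ± 0.26, adjusted p = 0.0106). Of 9 tested genes of the 2-cell-like state, such as the Zscan4 copies, 7 were above 0, and their summed level was 69.5 CPM in KO+WT, 19.2 CPM in KO+N-KR and 25.5 CPM in KO, compared with 51.9 CPM in f/f. Of 10 tested trophoblast genes 9 were below 0, with a median of −0.20. At day 2 the median was 0.32 for trophoblast genes and −0.04 for markers of endothelium and blood. In 3i that of immediate early genes was 0.72, so these 3 lists did not keep their day 1 sign in every state.

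**Figure D5:**
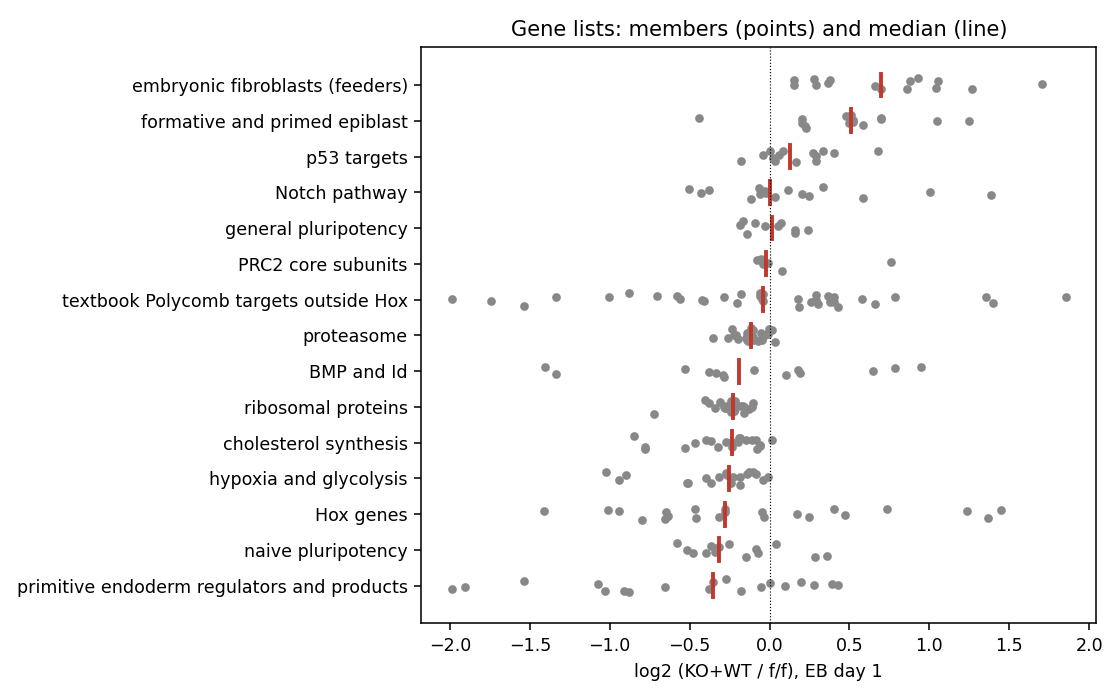
Log2 ratio of KO+WT to f/f at embryoid body day 1 for the tested members of 15 gene lists, with 1 grey point per gene and a red line at each median; the dotted line is 0. Feeder markers (median 0.70) and formative genes (0.51) lie to the right. Naive, endoderm, Hox, hypoxia, cholesterol and ribosomal genes lie to the left, with medians from −0.35 to −0.23, and the Hox genes have few counts.

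Most of what differed at day 1 differed the same way in the samples of the other states, which share no library with it. Of the 61 genes higher by size at day 1, 57 (93.4%) were above 0 in 3i and 58 (95.1%) at day 2, with median log2 ratios of 0.77 in 3i and 0.74 at day 2, where 50.3% and 52.1% of all genes were above 0. Of the 49 lower genes, 46 (93.9%) were below 0 in each state, with medians of −0.91 in 3i and −0.57 at day 2, against 49.4% and 47.9% of all genes. Without chromosome 8 and the Xlr region, 56 and 57 of 60 higher genes and 21 and 22 of 24 lower genes kept their sign in 3i and at day 2. Fewer met the size rule again. Of the 61 higher genes 12 also met it in 3i (19.7% of the day 1 genes and 13.5% of the 89 genes higher in 3i) and 15 at day 2 (24.6% and 38.5% of 39). Of the 49 lower genes 19 met it in 3i (38.8% and 55.9% of 34) and 8 at day 2 (16.3% and 80% of 10).

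Over the 3 states together, KO+WT had 556 genes called higher than f/f (3.65%) and 787 called lower (5.17%) of 15220, and 123 of the higher and 39 of the lower were at least 2-fold. Chromosome 8 held 446 of the 787 called lower (56.7%) and 6 of those called higher. A difference particular to day 1 was then tested directly, as the day 1 difference minus that of 3i and day 2. No gene passed (lowest adjusted p of 1, with 219 genes at an unadjusted p under 0.05; DESeq2 called 0 with 83). Among 15558 genes, 219 is fewer than an unadjusted threshold of 0.05 would pass if no gene differed. The test was thus strict, with 1 sample per line and state, and differences particular to day 1 may have been missed. The levels of a gene could still range widely over the states. Insm1 had 0.592 CPM in KO+WT and 0.481 CPM in f/f in 3i, 22.5 CPM in KO+WT and 8.58 CPM in f/f at day 1, and 18.8 CPM in KO+WT and 10.4 CPM in f/f at day 2.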

How the data were processed

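Poly(A)-selected RNA was sequenced. The authors deposited raw read counts in 1 table (23284 gene symbols, 30 columns). Of its columns, 24 match library names in the labels and 6 were not used. Per the submitters' processing notes, the tools were STAR 2.5.2b and DESeq2 and the build mm9. The tool that counted reads, its strand setting and the gene models were not given in the sources used here. Reads of overlapping or antisense genes therefore cannot be told apart. Depth per library lay between 7553683 and 14426034 counts.

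The libraries of each group were summed (12 samples). Genes kept by filterByExpr were TMM-scaled and tested with edgeR 4.0.16 in R 4.3.3 (quasi-likelihood F-test, Benjamini-Hochberg adjustment); standard errors come from the fold change and its F. The 3-state comparison is the additive fit of genotype and state (6 residual degrees of freedom, coefficient of variation 7.97%). Size ratios used a prior count of 2. The scripts were tested on simulated counts. Chromosomes came from RefSeq (GRCm38) by symbol for 15459 genes; since the builds differ, its coordinates are printed for promoters alone. Counting intervals and floors cover counting error only.

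Named genes are the called genes with at least 2-fold and 5 CPM, up to 15 in each direction, without predicted genes and with copies counted once, and members of 40 gene lists. A gene that meets this rule is not reported here. Members and lists were chosen with earlier results of these data known. Alternatives were other scalings, filters, fits, DESeq2 1.42.0, left-out samples or replicates and, after seeing the data, chromosome 8 left out.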

Additional observations from a re-analysis of the deposited data

How the results depend on the processing

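The day 1 counts depend on how the spread is estimated. On the 12 summed samples, 54 genes were called (17 higher and 37 lower). Leaving out the 3i samples gave 552 (222 and 330), leaving out KO+N-KR 23 (5 and 18), leaving out day 2 21 (8 and 13), and leaving out KO raised the higher calls to 29. No filter on low counts gave 106 (35 and 71), library totals as scaling gave 24 lower, and a 2-fold minimum 31 in all with 16 lower. DESeq2 gave 141 (50 and 91), which hold 53 of the 54 genes, with no adjusted p for 3017 genes. Without chromosome 8 genes, chosen after seeing the data, 20 were called (7 and 13), all among the 54, and over the 3 states 647 (339 and 308) in place of 1343. Leaving out 1 replicate gave 41 to 57 calls.

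Treating the 24 libraries as 12 groups of 2 gave 4485 calls (2075 and 2410) without and 4542 (2109 and 2433) with the replicate block, and the 4 day 1 libraries alone 4537 (2178 and 2359) without and 4616 (2210 and 2406) with it. These measure noise near that of repeated sequencing. In the labels all replicate 1 libraries share one name prefix and all replicate 2 libraries another, so the number marks a library set that every group has; what the sets are is not given. The replicate 1 minus replicate 2 differences of KO+WT and f/f were uncorrelated (r = 0.01 across 10599 genes, which are not independent), and the block moved no count by over 1.5 times. By size, a minimum of 10 CPM gave 59 genes (31 and 28), of 1 CPM 346 (221 and 125), and a 1.5-fold limit 562 (252 and 310), in place of 110 (61 and 49). The chromosome 8 median was −0.39 with library totals.

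Leaving chromosome 8 out ended the calls of Insm1, Frmd5, Pla2g1b, Grb10, Slc4a5, Abcb1b, Dusp27, Id1, Mgat4b and Sqle (adjusted p 0.0515 to 0.0707). The scaling, the fit and the set of genes adjusted over all changed there, and why these calls ended was not tested. The 29 called genes with values under the alternatives kept their direction in each; the other 25 calls were not followed singly. Of 40 list medians 0 changed sign without chromosome 8, where the largest move was 0.13, but the Hox median and some medians near 0 did without 1 replicate. Genes with few counts, such as Hox genes, are limited by depth.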
